A study of Homo sapiens with 4 samples.

Results

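The genes described here encode cytoplasmic actin and the proteins that bundle, anchor or pull on it. They are ACTB, ACTG1, TPM1, TPM2, TPM3, TPM4, MYL9, VCL, FLNA and ACTN1, chosen by symbol from a fixed list, and all 10 were found among the 57428 genes with an entry for their own (sense) strand. The cells were U2OS, a human osteosarcoma line, carrying GFP-DCP1a, a tagged decapping cofactor, in every library of both groups; the line was kept under G418, and the labels do not say whether it is 1 clone. In the hypertonic group 10x PBS raised sodium to 300 mM, and in the isotonic group an equal volume of 1x PBS left it at 150 mM, with 2 libraries each. Bru-seq was used, in which RNA made during 30 min in 2 mM bromouridine is captured with an antibody and sequenced, here with no chase. The length of the exposure and the origin of the replicates (separate cultures or not) are not given, so each p-value speaks of the spread of these libraries alone, which could be technical. In such bulk samples, fewer cells of a kind and less RNA per cell cannot be told apart.

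Actin monomers assemble into filaments, tropomyosins coat and stabilise the filaments, and filamins and alpha-actinins cross-link them. Vinculin ties filaments to cell adhesions, and myosin light chains regulate the motor that contracts them. Many of these genes are textbook targets of the serum response factor SRF and its cofactors of the MRTF family, which bind monomeric actin and enter the nucleus when monomers are scarce.

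Total counts were 23048409 to 44888307 per library. Expected counts were compared as CPM (counts scaled to an equal library size, with library sizes scaled by TMM), and levels of different genes as the authors' RPKM (counts per kilobase, scaled by library). DCP1A, the gene of the tagged copy, measured 314 and 199 CPM in hypertonic replicates 1 and 2 and 283 and 630 CPM in isotonic replicates 1 and 2. Every library carried the tagged copy, so overexpression could not be read from these values. Of 8 mesenchymal and bone markers, 4 were at or above 1 RPKM in every library, VIM (13.8 to 31.3 RPKM) the highest, while COL1A2 stayed under 0.01 RPKM and TWIST1 was listed at 0; the summed level was 38.9 and 27.3 RPKM in the hypertonic and 29.6 and 23.7 RPKM in the isotonic libraries. The summed level of 7 muscle markers, mostly CNN1, was 1.47 and 1.66 against 0.741 and 4.46 RPKM, highest in isotonic replicate 2. The 3 endothelial and 4 blood markers stayed under 0.1 RPKM, and so did MYOD1, MYOG, MYH11 and DES among muscle markers. ACTA1 reached 0.366 RPKM and ACTC1 0.125 RPKM. The 5 epithelial markers summed to 0.267 to 0.661 RPKM, mostly CLDN4 and EPCAM, with KRT5 listed at 0.

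The CArG box, the site that SRF binds, was looked for in RefSeq promoter windows (GRCh38.p14, 250 bases before to 50 after a start) because it is the sequence that many actin genes are known to share. Windows were held for 8 of the 10 genes, 15 windows in all. ACTB and MYL9 had no window, so their promoters were not searched. An exact box, which reads the same class of letters on both strands, was in 4 of the 15 windows, next to 1.29% of all 35116 windows. The 4 boxes are shown in capitals with 15 bases on each side, 5′ to 3′ on the strand of the gene:
ACTG1, chr17:81512869-81512908, minus strand: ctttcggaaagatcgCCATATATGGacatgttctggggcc
TPM4, chr19:16067350-16067389, plus strand: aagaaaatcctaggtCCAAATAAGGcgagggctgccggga
FLNA, chrX:154374704-154374743, minus strand: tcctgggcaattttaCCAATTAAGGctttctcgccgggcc
ACTN1, chr14:68977713-68977752, minus strand: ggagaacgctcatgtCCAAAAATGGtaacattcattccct
The box began 94 bases before the RefSeq start in ACTG1 and FLNA, 173 in TPM4 and 171 in ACTN1. These starts lie inside the deposited genes, by 75 bases in ACTG1, 31 in TPM4, 4 in FLNA and 1874 in ACTN1. TATAAA, searched on both strands, was in 1 of the 15 windows (ACTN1) and in 11.5% of all windows. CATTCC, the core site of TEAD factors, also searched on both strands, was in 2 of the 15 (VCL and ACTN1) and in 14.0% of all. A match is a description of the letters and does not show binding.

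The level of nascent RNA per kilobase spanned from ACTB to MYL9. Averaged over the 4 libraries, ACTB stood at 58.6 ± 28.2 RPKM (SD, n = 4), ACTG1 at 20.6 ± 13.2, TPM1 at 13.0 ± 2.74 and TPM2 at 5.85 ± 3.10. ACTN1 followed at 4.73 ± 2.01 RPKM, FLNA at 3.34 ± 1.91, TPM3 at 2.80 ± 0.974, VCL at 2.33 ± 1.04, TPM4 at 1.73 ± 1.29 and MYL9 at 0.855 ± 0.494 (SD, n = 4 each). In this order ACTB exceeded ACTG1 in 4 of 4 libraries, TPM1 exceeded TPM2 in 4, VCL exceeded TPM4 in 4 and TPM4 exceeded MYL9 in 4. The remaining neighbours changed places in at least 1 library: ACTG1 was above TPM1 in 3 of 4, TPM2 above ACTN1 in 2, ACTN1 above FLNA in 3, FLNA above TPM3 in 3 and TPM3 above VCL in 3. Among the 4828 expressed protein-coding genes (tested, with a mean of at least 1 RPKM), ACTB ranked 5 to 9 in every library, whereas TPM4 ranked 812 in isotonic replicate 2 and 4256 in hypertonic replicate 1.

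**Figure D1:**
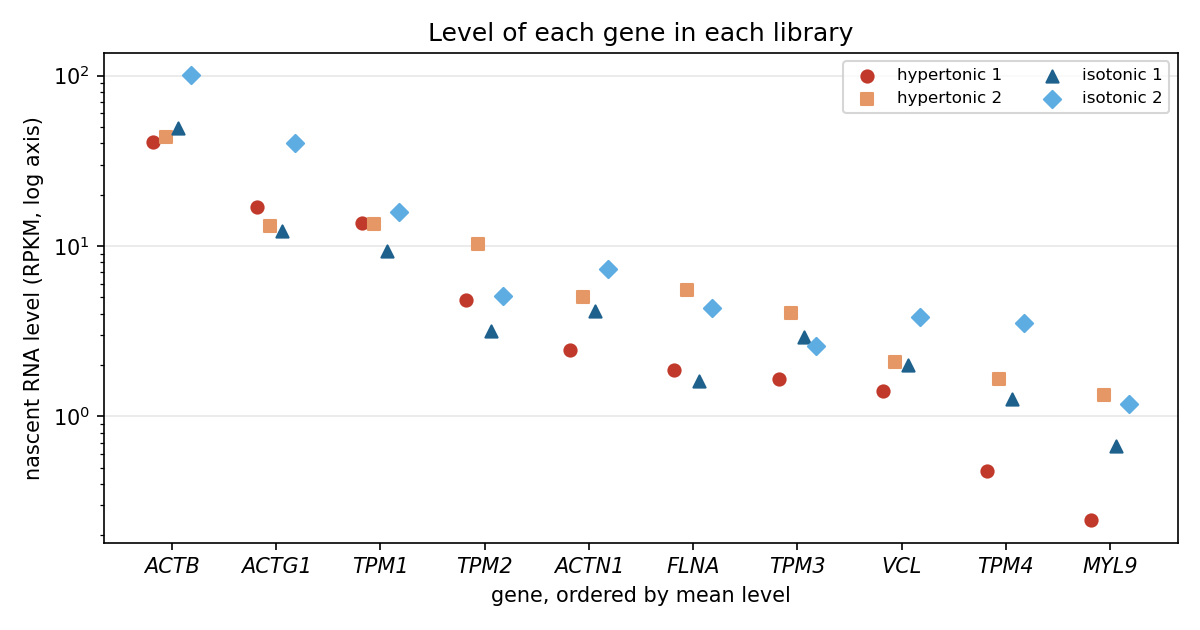
Nascent RNA level (RPKM, log axis) of the 10 genes, 1 symbol per library, ordered by mean. Isotonic replicate 2 (light diamonds) holds the highest value for ACTB, ACTG1, TPM1, ACTN1, VCL and TPM4, and the 2 isotonic libraries of ACTB stand at 49.2 and 101 RPKM.

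ACTB (ENSG00000075624, chr7:5527151-5530709, minus strand) encodes beta-actin. It measured 41.0 and 43.6 RPKM in hypertonic replicates 1 and 2 and 49.2 and 101 RPKM in isotonic replicates 1 and 2. In CPM the values were 215 and 165 against 214 and 480. Isotonic replicate 2 was high, and the other 3 libraries lay close together. Both hypertonic libraries were below both isotonic ones in RPKM, but not in CPM, where hypertonic replicate 1 and isotonic replicate 1 were level. The log2 fold change of hypertonic over isotonic was -0.87 ± 0.48 (SE, n = 2 per group; edgeR quasi-likelihood test, adjusted p = 0.589), with -0.21 without isotonic replicate 2 and -1.36 without isotonic replicate 1.

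ACTG1 (ENSG00000184009, chr17:81509971-81512874, minus strand) encodes gamma-actin, the other cytoplasmic isoform. It measured 16.8 and 13.1 RPKM in the hypertonic and 12.3 and 40.1 RPKM in the isotonic libraries, so the groups overlapped and 1 library held the high value. Its log2 fold change was -0.83 ± 0.60 (SE; edgeR, adjusted p = 0.746), and 0.33 without isotonic replicate 2. The ratio of ACTB to ACTG1, which does not depend on scaling between libraries, was 2.43 and 3.32 in the hypertonic and 3.999 and 2.51 in the isotonic libraries. The mean log2 ratio differed by -0.16 between the groups (exact two-sided permutation test, p = 0.667, where 2 against 2 libraries cannot give a p below 0.33). The direction turned without hypertonic replicate 1 (0.067) and without isotonic replicate 1 (0.18).

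Tropomyosins form coiled-coil dimers along the groove of the filament, and the 4 genes differed in which library was high. TPM1 (ENSG00000140416, chr15:63042632-63071915, plus strand) measured 13.6 and 13.4 RPKM in the hypertonic and 9.28 and 15.9 RPKM in the isotonic libraries. The groups overlapped, and its log2 fold change was 0.07 ± 0.46 (SE; edgeR, adjusted p = 0.996). TPM2 (ENSG00000198467, chr9:35681992-35691020, minus strand) measured 4.83 and 10.3 RPKM in the hypertonic and 3.19 and 5.06 RPKM in the isotonic libraries. In CPM it measured 64.1 and 99.0 against 35.2 and 61.2, the only one of the 10 genes with both hypertonic libraries above both isotonic ones on that scale. Its log2 fold change was 0.76 ± 0.46 (SE; edgeR, adjusted p = 0.648), and in RPKM the groups overlapped. With a library left out it was 0.38 (isotonic replicate 1), 0.41 (hypertonic replicate 2) or 1.17 (isotonic replicate 2).

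TPM3 (ENSG00000143549, chr1:154155304-154192211, minus strand) measured 1.66 and 4.02 RPKM in the hypertonic and 2.94 and 2.58 RPKM in the isotonic libraries. Here the hypertonic libraries enclosed the isotonic ones, and the log2 fold change was -0.07 ± 0.42 (SE; edgeR, adjusted p = 0.996), with a positive sign under total-count (0.20) and upper-quartile scaling (0.11). TPM4 (ENSG00000167460, chr19:16067507-16103005, plus strand) measured 0.480 and 1.65 RPKM in the hypertonic and 1.26 and 3.53 RPKM in the isotonic libraries. Hypertonic replicate 1 was the low library and isotonic replicate 2 the high one, with the other 2 between them. At -1.35 ± 0.63 (SE; edgeR, adjusted p = 0.490) its log2 fold change was the largest in size of the 10. Without hypertonic replicate 2 it was -2.15 and passed the threshold (edgeR, adjusted p = 0.0278; 0.0278 to 1.00 over the 11 alternatives), and without isotonic replicate 2 it was -0.36. The fit without hypertonic replicate 2 has 1 hypertonic library, which is assumed to vary like the 2 isotonic ones, so that call has no replicate behind it in hypertonic medium.

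Within a library, TPM1 made up 66.1 and 45.6% of the summed RPKM of the 4 tropomyosin genes in the hypertonic and 55.7 and 58.7% in the isotonic libraries. TPM2 made up 23.5 and 35.1% against 19.1 and 18.7%, so both hypertonic libraries were above both isotonic ones. TPM4 made up 2.33 and 5.61% against 7.54 and 13.1%, so both hypertonic libraries were below. TPM3 made up 8.07 and 13.7% against 17.6 and 9.54%, with overlap. The means of TPM2 were 29.3 ± 8.25% and 18.9 ± 0.288%, and those of TPM4 were 3.97 ± 2.32% and 10.3 ± 3.91% (SD, n = 2 each; exact two-sided permutation test, p = 0.33 for each, the smallest it allows).

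**Figure D2:**
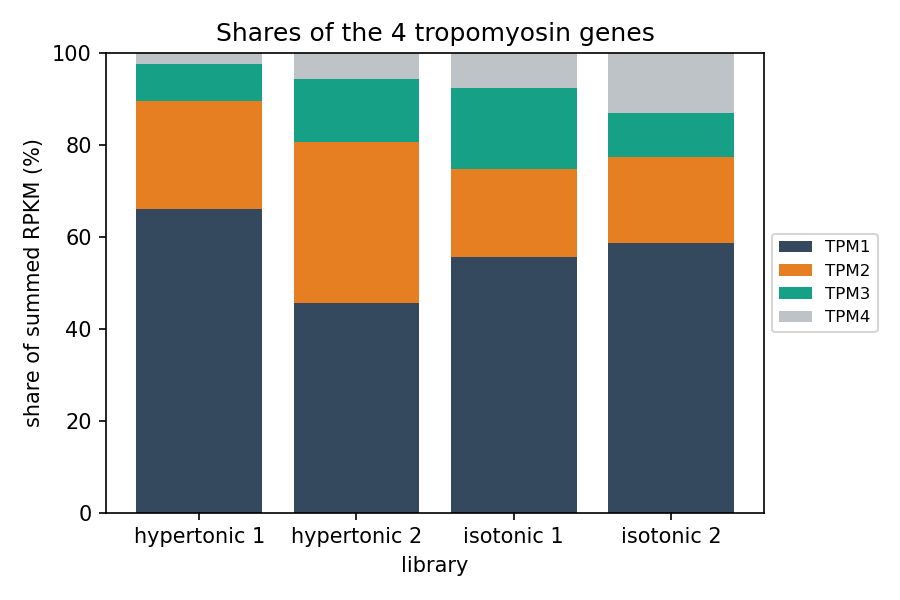
Shares of TPM1, TPM2, TPM3 and TPM4 in their summed RPKM (%), 1 stacked bar per library. TPM4 holds 2.33 and 5.61% in the hypertonic and 7.54 and 13.1% in the isotonic libraries, and TPM2 23.5 and 35.1% against 19.1 and 18.7%.

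MYL9 (ENSG00000101335, chr20:36541484-36551447, plus strand) encodes a regulatory light chain of smooth muscle and non-muscle myosin. It rested on 85 and 357 counts in the hypertonic and 334 and 304 counts in the isotonic libraries, the fewest of the 10 genes. In RPKM it measured 0.245 and 1.33 in the hypertonic and 0.672 and 1.17 in the isotonic libraries. The hypertonic libraries were both the lowest and the highest, and the log2 fold change was -0.44 ± 0.75 (SE; edgeR, adjusted p = 0.964).

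VCL, FLNA and ACTN1 connect filaments to each other and to adhesions. VCL (ENSG00000035403, chr10:73998114-74121363, plus strand), vinculin, measured 207 and 222 CPM at 300 mM sodium and 247 and 514 CPM at 150 mM, the only one of the 10 genes with both hypertonic libraries below both isotonic ones in CPM. In RPKM it measured 1.40 and 2.08 against 2.01 and 3.82, and the groups overlapped. Its log2 fold change was -0.83 ± 0.46 (SE; edgeR, adjusted p = 0.590), and it ranged from -1.29 to -0.25 when either isotonic library was left out. The deposited entry leaves out 22779 bases of the gene, the span of AL596247.1, a sense-intronic gene inside it. That gene's own entry covers fewer bases than this span, so its RPKM is not the level of the bases left out. On 17 and 58 counts it measured 1.11 and 4.86 RPKM in the hypertonic libraries. In the isotonic libraries 116 and 276 counts gave 5.25 and 24.1 RPKM. The gene was picked out after its values were seen.

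ACTN1 (ENSG00000072110, chr14:68874143-68979440, minus strand), a non-muscle alpha-actinin, measured 2.45 and 5.02 RPKM in the hypertonic and 4.17 and 7.29 RPKM in the isotonic libraries. The groups overlapped, and the log2 fold change was -0.73 ± 0.48 (SE; edgeR, adjusted p = 0.683). For ACTN1 it was -0.23 without isotonic replicate 2, -1.16 without isotonic replicate 1 and -0.46 by total count. FLNA (ENSG00000196924, chrX:154348526-154374638, minus strand), filamin A, measured 1.87 and 5.51 RPKM in the hypertonic and 1.61 and 4.35 RPKM in the isotonic libraries. Replicate 2 was the higher library in both groups, by 2.13-fold and 2.96-fold in CPM, and the log2 fold change was 0.14 ± 0.58 (SE; edgeR, adjusted p = 0.993).

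None of the 10 genes passed the edgeR test at an adjusted p of 0.05, and neither did any of the 21238 genes tested (0.0%). At an unadjusted p under 0.05 edgeR had 0 of the 10 and 10.9% of all tested genes. DESeq2 called 0 of the 10 and 3.44% of all genes, and limma-voom called 0 of either (0.0%). With the replicate number as a block edgeR called 0 of the 10 and 1.81% of all genes, and leaving out hypertonic replicate 2 gave a call for TPM4, 1 of the 10, and for 21.4% of all genes, with 1 hypertonic library in that fit. Fitted fold changes were negative for 7 of the 10 and positive for 3, with a median of -0.58 on the log2 scale, beside 0.04 over all tested genes and -0.33 over expressed protein-coding genes, of which 77.2% were negative. Other scalings moved the median of all tested genes to 0.26 (total count) and 0.23 (upper quartile). Relative to that median, the 10 genes stood at -0.62 with TMM, -0.54 by total count and -0.64 by upper quartile. In CPM 1 of the 10 genes had both hypertonic libraries below both isotonic ones (17.5% of all tested genes) and 1 had both above (22.5%). Among expressed protein-coding genes these shares were 38.7% below and 5.32% above. In RPKM these counts were 1 below (ACTB, 13.6% of all) and 0 above (23.5%).

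The members' median rested on isotonic replicate 2. Without it 5 of the 10 fold changes were negative and the median was -0.037. Without isotonic replicate 1 the figures were 9 of 10 and -1.02, and without hypertonic replicate 1 they were 6 of 10 and -0.37. ACTB, VCL, ACTN1 and TPM4 kept a negative sign and TPM2 a positive one in each of the 11 alternatives run, and the sign of the other 5 genes turned in at least 1.

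**Figure D3:**
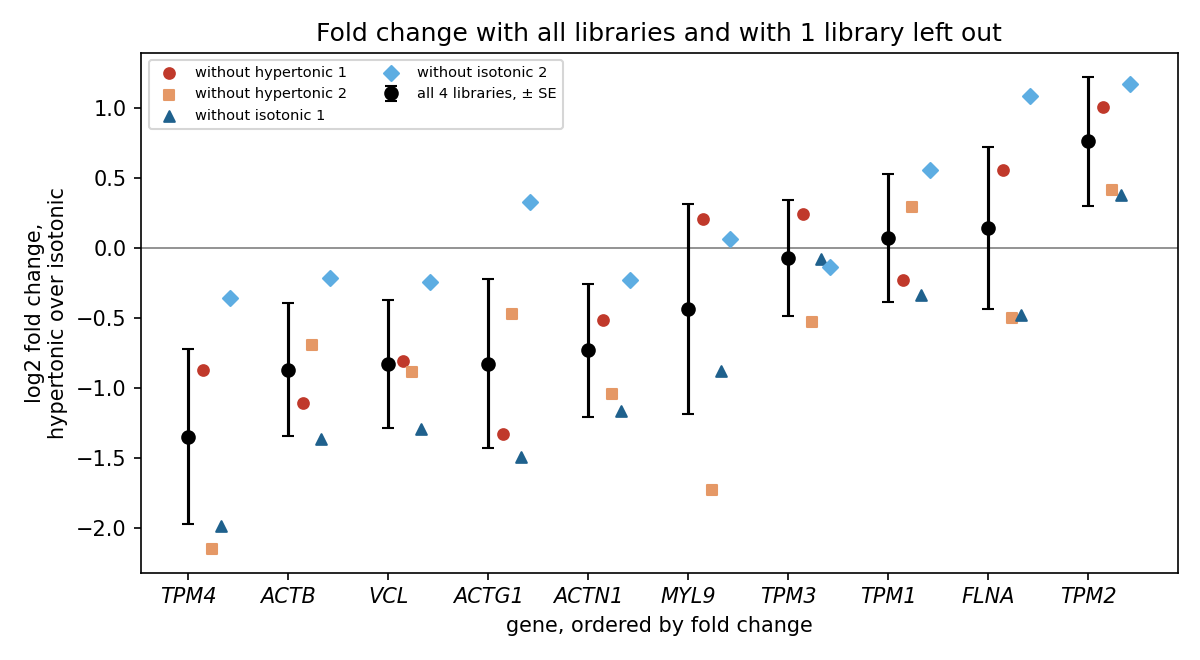
Log2 fold change of hypertonic over isotonic for the 10 genes, with all 4 libraries (black, bars are SE) and with 1 library left out (coloured). Leaving out isotonic replicate 2 (light diamonds) moves ACTB from -0.87 to -0.21 and ACTG1 from -0.83 to 0.33.

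The 2 isotonic libraries differed from each other by a median of 1.00 on the log2 scale over the 10 genes. Isotonic replicate 2 was above replicate 1 in CPM for 9 of the 10 genes, next to 49.9% of all tested genes, and more than 2-fold above it for 5 of the 10 (ACTB, ACTG1, TPM4, VCL and FLNA), next to 8.72%. The ratio was 3.58 for ACTG1, 3.08 for TPM4, 2.96 for FLNA, 2.24 for ACTB and 2.08 for VCL. For TPM3 it was 0.961. The hypertonic libraries differed in another way: replicate 2 was below replicate 1 for ACTB (0.768 of its CPM), ACTG1 (0.564) and TPM1 (0.712), and above it for the other 7 genes, by up to 3.91-fold for MYL9.

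**Figure D4:**
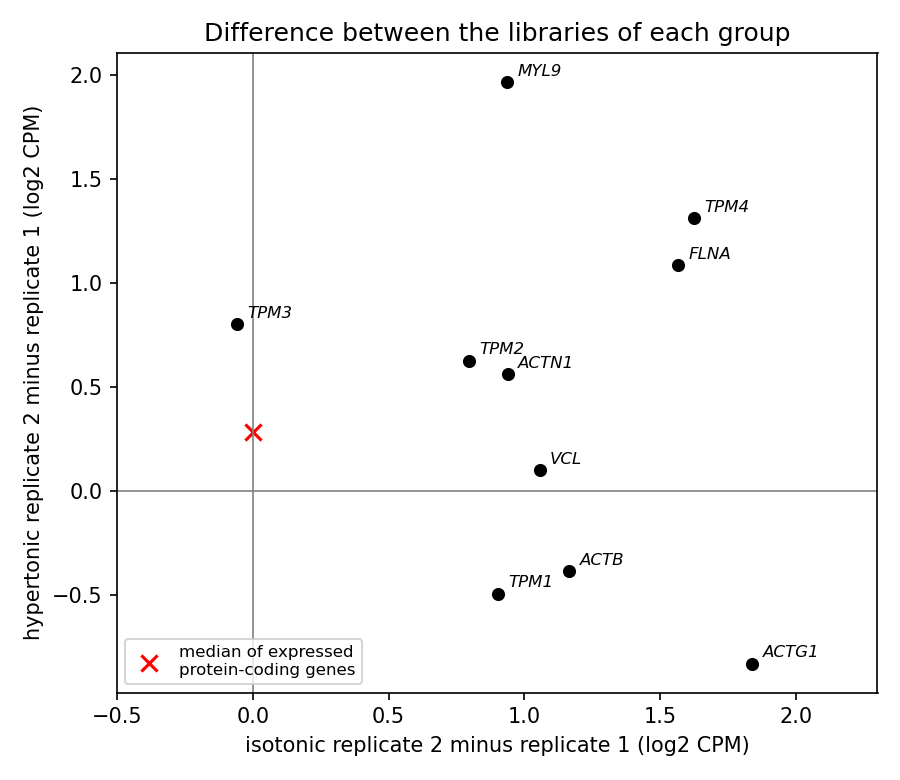
Difference between the libraries of each group in log2 CPM, isotonic replicate 2 minus 1 (horizontal) against hypertonic replicate 2 minus 1 (vertical), 1 point per gene; the cross marks the median of expressed protein-coding genes. Of the 10 genes, 9 lie to the right of 0, and ACTB, ACTG1 and TPM1 lie below 0.

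The SRF early genes, which respond to serum and growth signals within minutes, had isotonic replicate 2 as their highest library in 8 of 9 cases. The exception was EGR3, at 0.887 and 1.18 CPM in the hypertonic libraries against 0.0736 and 0.722 CPM. All 9 listed members were more than 2-fold higher in isotonic replicate 2 than in replicate 1, next to 8.72% of all tested genes. Their median difference was 3.70 on the log2 scale, and EGR3 rested on 3 and 14 isotonic counts. Of the 9, 8 were higher in hypertonic replicate 1 than in replicate 2, while replicate 2 was the higher one for 53.2% of all tested genes. FOS measured 148 and 9.90 CPM in hypertonic medium and 16.8 and 324 CPM in isotonic medium, and EGR1 166 and 55.6 against 57.3 and 747 CPM. SRF itself measured 17.7 and 11.3 CPM at 300 mM sodium and 16.7 and 52.5 CPM at 150 mM. The MRTF genes, listed under the older symbols MKL1 and MKL2, measured 551 and 492 against 695 and 646 CPM, and 510 and 212 against 403 and 367 CPM. The part of these differences in the values of the 10 genes was not tested.

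The genes whose pattern over the 4 libraries was nearest to ACTB, by Euclidean distance between centred log2 CPM values, were CREB5, AP3S1, CPA4, CD44 and TGFB2 among 4827 expressed protein-coding genes. CREB5 measured 1102 and 925 CPM in hypertonic medium and 1194 and 2579 CPM in isotonic medium. Of the members, VCL ranked 22 in nearness to ACTB, ACTG1 ranked 98, ACTN1 187 and TPM1 676. TPM4, TPM3, FLNA and TPM2 ranked from 2632 to 3808. With 4 libraries many genes lie at like distances, and these ranks are a description.

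Other genes of the actin system were described from 4 lists, with no gene passing the edgeR test over all genes (0.0%). The background for their signs was that of expressed protein-coding genes, 77.2% negative with a median of -0.33, and the share of negative members in the turnover, contractile and focal adhesion lists was close to it. Without hypertonic replicate 2, in the fit with 1 hypertonic library, edgeR called 7 of 17 turnover, 4 of 23 contractile, 6 of 18 focal adhesion and 4 of 16 Arp2/3 and WAVE genes, next to 21.4% of all genes. Actin filament turnover, the group that severs, caps and recycles filaments, had 13 of 17 members negative and a median log2 fold change of -0.66. WDR1, a cofactor of cofilin, measured 52.2 and 66.6 CPM at 300 mM sodium and 104 and 316 CPM at 150 mM (-1.82 ± 0.55, SE; edgeR, adjusted p = 0.274). CAPZA1, a subunit of the capping protein, measured 85.3 and 121 against 244 and 237 CPM (-1.22 ± 0.39; edgeR, adjusted p = 0.303), so here the isotonic libraries were alike. The median of this list was -0.54 without isotonic replicate 2, with 14 of 17 negative, and -0.40 by total count.

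Other contractile and actin-binding genes had 17 of 23 tested members negative and a median of -0.45, but 9 of 23 and 0.03 without isotonic replicate 2. Leaving out isotonic replicate 1 gave a median of -0.72, and total-count scaling gave -0.19. CALD1, caldesmon, measured 305 and 284 CPM in hypertonic medium and 406 and 1040 CPM in isotonic medium (-1.30 ± 0.51, SE; edgeR, adjusted p = 0.398). CNN3, a calponin, measured 125 and 117 against 212 and 231 CPM (-0.87 ± 0.37; edgeR, adjusted p = 0.438). FHL2, a LIM-domain cofactor, stood at -1.63 ± 0.50 (edgeR, adjusted p = 0.278). Focal adhesion genes had 14 of 18 negative and a median of -0.33, the same as the background. Their median was -0.16 without isotonic replicate 2, -0.63 without isotonic replicate 1, -0.68 without hypertonic replicate 2, and -0.09 by total count. ITGB1, an integrin subunit, measured 417 and 442 against 680 and 1011 CPM.

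Arp2/3 and WAVE genes, which start branched filaments, had 14 of 16 tested members negative and a median of -0.35. Leaving out hypertonic replicate 1 gave -0.18, leaving out hypertonic replicate 2 gave -0.58, and total-count scaling gave -0.10, with 11 of 16 negative. ACTR3 measured 243 and 167 CPM at 300 mM sodium and 328 and 367 CPM at 150 mM.

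Sequence around the members was read from the strand opposite to each gene and from the next gene downstream. For 9 of the 10 genes the tables held an antisense entry, and MYL9 was the exception. An annotated antisense gene, DLGAP4-AS1 (chr20:36507702-36573275, minus strand), spans the whole of MYL9. Its own entry, which reaches beyond MYL9, held 211 and 410 counts in the hypertonic and 340 and 195 in the isotonic libraries. ACTB, ACTG1 and TPM2 had at most 3 antisense counts in any library. VCL stood apart: 2066 and 1004 antisense counts in the hypertonic and 1638 and 991 in the isotonic libraries. As a share of both strands these were 29.7% (95% exact binomial interval 28.6 to 30.8) and 15.1% (14.2 to 15.97) against 14.0% (13.3 to 14.6) and 9.05% (8.51 to 9.60), intervals that cover counting error only. Both hypertonic shares were above both isotonic ones. The antisense level itself was 87.3 and 39.5 CPM in hypertonic medium and 40.2 and 51.2 CPM in isotonic medium, and there the groups overlapped. AP3M1 (chr10:74120255-74151063, minus strand), a subunit of an adaptor complex, overlaps the last 1109 bases of VCL and is read toward it. AP3M1 measured 0.954 and 1.94 RPKM in the hypertonic and 2.24 and 1.44 RPKM in the isotonic libraries, and the VCL antisense entry reached 62.6 and 19.3% of that level against 14.7 and 26.7%.

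TPM4 had 65 and 27 antisense counts in the hypertonic and 26 and 17 in the isotonic libraries, or 9.88% (95% exact binomial interval 7.71 to 12.4) and 1.68% (1.11 to 2.43) against 1.16% (0.757 to 1.69) and 0.519% (0.303 to 0.831). Antisense shares of both hypertonic libraries were above both isotonic ones for 4 of the 9 genes (VCL, TPM4, FLNA and TPM3), next to 45.2% of 4734 expressed protein-coding genes, and below for 1 of the 9 (TPM1), next to 2.87%. TPM1 rested on 9 to 24 antisense counts, or 0.166 and 0.0848% in the hypertonic and 0.177 and 0.176% in the isotonic libraries. The median share over those genes was 0.433 and 0.324% in the hypertonic and 0.112 and 0.134% in the isotonic libraries.

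The nearest downstream gene on the same strand began 0.187 to 29.8 kb after the member's end, and 8 of these 10 neighbours were tested. NUP210L (chr1:153992685-154155116), a nucleoporin-like gene that begins 187 bases after the end of TPM3, measured 43.0 and 16.8 CPM at 300 mM sodium and 5.47 and 5.16 CPM at 150 mM. Its log2 fold change was 2.49 ± 0.64 (SE; edgeR, adjusted p = 0.217). Its RPKM was 10.8 and 2.43% of that of TPM3 in the hypertonic and 0.938 and 0.921% in the isotonic libraries (exact two-sided permutation test of the log2 ratio, p = 0.33). Both hypertonic libraries were above both isotonic ones in CPM for 4 of the 10 neighbours: NUP210L, AC087612.1 after TPM1, LINC01971 after ACTG1 and AC245140.1 after FLNA. The share of all tested genes with that pattern was 22.5%. LINC01971 and AC245140.1 had too few counts to be tested and lie outside that share. Among the 8 tested neighbours only NUP210L and AC087612.1 had the pattern. FBXL18, which begins 13.4 kb after ACTB, stood at 0.17 ± 0.42 and RAB8A, 8.62 kb after TPM4, at -0.32 ± 0.53 (SE).

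**Figure D5:**
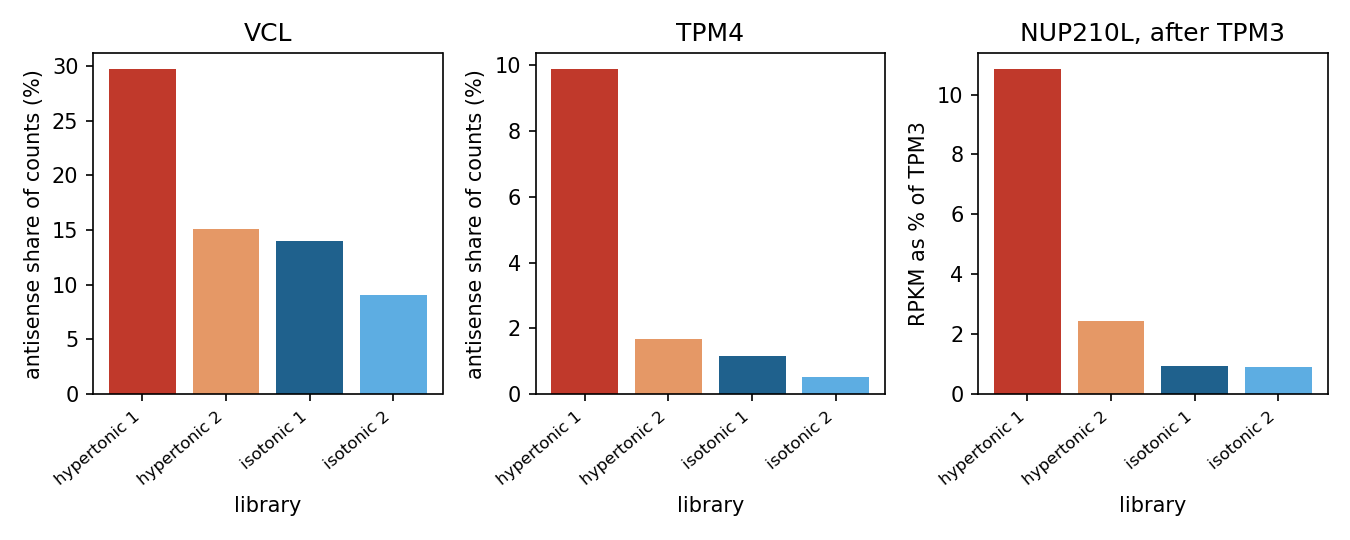
Antisense share of counts (%) at VCL and at TPM4, and RPKM of NUP210L as a percentage of TPM3, 1 bar per library, each panel on its own scale. Hypertonic replicate 1 is the highest bar in each panel, at 29.7, 9.88 and 10.8%.

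Processed pseudogenes of actin and tropomyosin can share reads with their parents. The 10 ACTB pseudogenes in the tables held 9 to 36 counts per library, or 0.0969 to 0.408% of the ACTB count. The 20 ACTG1 pseudogenes held 252 and 164 counts in the hypertonic and 197 and 106 in the isotonic libraries, which was 14.8 and 15.9% of the ACTG1 count against 11.04 and 3.51%. The 8 TPM3 pseudogenes held 5.77 to 9.63% of the TPM3 count. How reads that match several places were counted is not stated in the sources. The ACTB, ACTG1 and TPM3 values are therefore uncertain by an unknown amount, which the pseudogene counts do not bound and which was not tested.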

How the data were processed

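Each of the 4 tables, 1 per library, lists 105538 entries by gene and strand on GRCh38. The authors deposited an expected count, not always whole, and an RPKM value, which was the count divided by the entry's length and by 1 constant per library; as no header names the columns, these meanings come from the values themselves. Tools named, per the submitters' processing notes, are bedtools 2.16.2, STAR 2.5.3a, Bowtie2 2.3.3 and CASAVA 1.8.2, with no role for each. Strand and gene type came from GENCODE 29 by Ensembl identifier; 304 genes were left out. Coordinates are those of the tables, counted from 1, and promoter sequences are from RefSeq.

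Sense counts were rounded and tested over all genes with edgeR 4.0.16 in R 4.3.3 (default expression filter, TMM factors 0.887 to 1.22, quasi-likelihood test, Benjamini-Hochberg adjustment at 0.05), after a check on simulated data. The SE is the log2 fold change divided by the square root of F. DESeq2 1.42.0, limma-voom (limma 3.58.1), other scalings, no filter, a replicate block and leaving out each library were the alternatives. No protein comparison was made, as protein sequences were not used here. Every member is named. In lists, names came from the 3 smallest p-values, with FOS, EGR1, EGR3, ACTA2, TUBB, TUBB4B, SRF and the MRTF genes. ACTB's 5 nearest genes and each member's downstream neighbour were added. Members and lists were chosen with earlier results of these data known. Molecular identifiers are not mentioned in the labels, and the counts are taken as reads. Results of 1 gene list are not reported here.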

Additional observations from a re-analysis of the deposited data

How the results depend on the processing

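Over all genes, edgeR called 916 with no filter and 384 with the replicate number as a block, DESeq2 called 731, and leaving out 1 library gave 0 to 4918 (the highest without hypertonic replicate 2). Of the 10 genes, 0 were called with the block, and 0 to 1 with a library left out, TPM4 without hypertonic replicate 2. With no filter edgeR called 2 contractile genes, 1 turnover gene and 3 of the 9 SRF early genes of the lists. That fit held 37347 genes, of which 916 were called. Deviations of same-numbered libraries correlated at 0.025 over the 21238 tested genes, and the numbers were not taken as pairs. This correlation pools genes of all levels and does not settle whether the libraries were paired. The median of the 10 ran from -1.02 to -0.037 with a library left out. The sign turned for TPM3 by total count (0.20) and upper quartile (0.11). With a library left out, fold changes ran from -0.53 to 0.24 for TPM3, -0.34 to 0.55 for TPM1, -1.73 to 0.20 for MYL9, -0.51 to 1.09 for FLNA and -1.49 to 0.33 for ACTG1. The other 99 of 110 values kept their sign and side of the threshold, besides TPM4 above. The ACTB to ACTG1 log2 difference ran from -0.49 to 0.18. On log2(RPKM + pseudocount) the median was -0.60, -0.54 and -0.33 with 0.01, 0.1 and 1. The cause of these shifts was not tested. MYL9, with 85 counts in 1 library, is the member that depth limits most.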

Other observations

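Outside the actin system, the lamin and tubulin genes with the smallest p-values in their list had hypertonic replicate 1 as their highest library. LMNA, which encodes A-type lamins of the nuclear envelope, measured 158 and 84.3 CPM at 300 mM sodium and 60.04 and 58.3 CPM at 150 mM (log2 fold change 1.03 ± 0.43, SE; edgeR, adjusted p = 0.429), with the isotonic libraries close together. TUBB2A, a beta-tubulin, measured 10.2 and 3.85 against 3.58 and 2.84 CPM, and TUBA1A, an alpha-tubulin, 18.8 and 3.46 against 5.27 and 2.53 CPM, with hypertonic replicate 1 high in each. Most of the other lamin and tubulin genes in the list went the other way. Their log2 fold changes ran from -0.62 (TUBB) to 0.30 (TUBB4B), and TUBB4B was the only positive one. The list of other cytoskeleton genes had 9 of 16 negative and a median of -0.10, which was 0.20 by total count and 0.08 by upper quartile, and ran from -0.25 to 0.14 with a library left out. The median of -0.25, with 11 of the 16 negative, came without hypertonic replicate 2, in a fit with 1 hypertonic library.

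The muscle actins were near the floor of detection. ACTA1, skeletal muscle actin, had 18 and 28 counts in the hypertonic and 5 and 3 in the isotonic libraries, or 0.760 and 1.10 against 0.123 and 0.155 CPM (log2 fold change 2.73 ± 0.85, SE; edgeR, adjusted p = 0.289). ACTC1, cardiac actin, had 35 and 14 counts against 14 and 15. ACTA2, smooth muscle actin, stayed at 0.157 to 0.343 CPM and was not tested.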
